A study of Homo sapiens with 12 samples.

Results

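HA-tagged FOXA1 put back into LNCaP cells that carried a FOXA1 hairpin was set against endogenous FOXA1 of LNCaP cells kept in DMSO, by where each was called on the genome and how strongly. The members are the HA ChIP-seq peaks of the shFoxA1+WT library and the FOXA1 ChIP-seq peaks of DMSO replicates 1 and 2. HA peaks that shared a base with a peak of the HA libraries without a tag (pGIPZ or shFoxA1 alone) were left out. The 3 lists were merged where peaks shared at least 1 base, which gave 136493 regions, against 178794 regions when all 12 lists of the series are merged. LNCaP cells are a human line from a prostate cancer that responds to androgen. The tagged cells had stable expression of shFoxA1 and of WT FOXA1 and were taken 5 days after infection, precipitated with an HA antibody, in 1 library (called HA WT here). The DMSO cells carried no hairpin by their labels, were taken after 7 days in the solvent that served the study's drugs, and were precipitated with a FOXA1 antibody, in 2 libraries. The labels do not say whether the replicates were separate cultures, whether the tagged cells were a clone or a pool, how much endogenous FOXA1 was left, or how much tagged protein was made.

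FOXA1 is a forkhead transcription factor with a winged-helix DNA-binding domain. It is known as a pioneer factor, able to bind its motif on nucleosomal DNA and to open chromatin for other factors. In luminal prostate cells it binds mostly at enhancers, many of them shared with the androgen receptor. An epitope tag lets an antibody pull down the reintroduced protein alone, whereas a FOXA1 antibody pulls down whatever FOXA1 the cell holds.

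HA WT had 13102175 tags and the DMSO libraries had 13674684 and 17225421 tags, within the range of 11640056 to 22589685 over the 12 libraries. The tagged library gave 97120 peaks, whereas the untagged HA libraries gave 982 (pGIPZ) and 971 (shFoxA1). Of the 97120, 531 (0.547%) shared a base with an untagged HA peak and were left out, and 96589 were kept. DMSO replicate 1 had 70809 peaks and replicate 2 had 81511. The share of tags inside peaks was 20.5% in HA WT, 20.9% in DMSO replicate 1 and 19.7% in DMSO replicate 2. Antibody, hairpin and infection, day, and the use of an input (in the DMSO lists, not in the HA list) all differ between HA WT and DMSO and cannot be told apart.

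Tagged and endogenous FOXA1 were called at 42285 regions in common, 31.0% of all merged regions. Another 41328 regions (30.3%) were called in HA WT alone. A further 14870 (10.9%) were called in both DMSO libraries and not in HA WT. The rest had a peak in only 1 DMSO library, with HA WT (12975 regions) or without it (25035 regions). HA WT was thus called at 74.0% of the 57155 regions of both DMSO libraries, while 43.8% of the 96588 regions of HA WT were called in both DMSO libraries. With 1 DMSO list in place of both, 30088 regions of DMSO replicate 2 (without replicate 1) and 24927 of DMSO replicate 1 (without replicate 2) had no HA WT call. With lists of equal length, the 70809 strongest peaks of each, 27342 regions were called in HA WT alone.

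Counted by peak, 47.5% of HA WT peaks were called in DMSO replicate 1 and 53.2% in DMSO replicate 2, a mean of 50.4% ± 4.06 (SD over the 2 DMSO libraries). In the other direction 64.8% of the peaks of DMSO replicate 1 and 63.1% of those of replicate 2 were called in HA WT, a mean of 63.9% ± 1.21 (SD, n = 2). The DMSO libraries shared more with each other: 80.6% of replicate 1 was called in replicate 2 and 70.0% of replicate 2 in replicate 1 (mean 75.3% ± 7.48, SD, n = 2). Each share in HA WT lay below the share of the same list in the other DMSO library. With 1 tagged library no spread between tagged replicates could be had, so these shares carry no test.

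The classes differed in strength, given as the normalized tag count, the tags in a peak scaled to a library of 1e7 tags. Regions called in all 3 had a median of 20.6 in HA WT, 27.1 in DMSO replicate 1 and 25 in DMSO replicate 2. Regions of HA WT alone had a median of 13.0 in HA WT, with a middle range (quartiles) of 10.7 to 17.6. Regions of both DMSO libraries without HA WT had medians of 16.1 and 12.8 in replicates 1 and 2. The file headers give a threshold of 10 tags in HA WT, 11 in DMSO replicate 1 and 11 in DMSO replicate 2 at the 0.001 false discovery rate, and the unshared regions lay nearer to that limit.

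How often a DMSO region was called with tagged FOXA1 followed its strength. The 57155 regions called in both DMSO libraries were put into 10 groups of equal size by their mean log2 tag count. In the weakest decile 40.0% were called in HA WT (95% exact Clopper-Pearson interval 38.7 to 41.2%). The shares in the next deciles were 49.1, 57.2, 65.7, 73.3, 80.3, 86.2, 92.0 and 96.7%. In the strongest decile 99.2% were called in HA WT (interval 98.9 to 99.4%), and 46 of 5716 regions were not. Intervals here cover counting error only.

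The replicate yardstick gives the same picture at a higher level. In the weakest decile of DMSO replicate 1, 33.8% of peaks were called in HA WT and 50.8% in DMSO replicate 2, and in the strongest decile 98.3% and 99.5%. In the weakest decile of DMSO replicate 2, 29.8% of peaks were called in HA WT and 32.0% in DMSO replicate 1, and in the strongest decile 98.7% and 99.2%. The strongest endogenous sites were called with tagged FOXA1 nearly as often as in the other endogenous replicate.

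**Figure D1:**
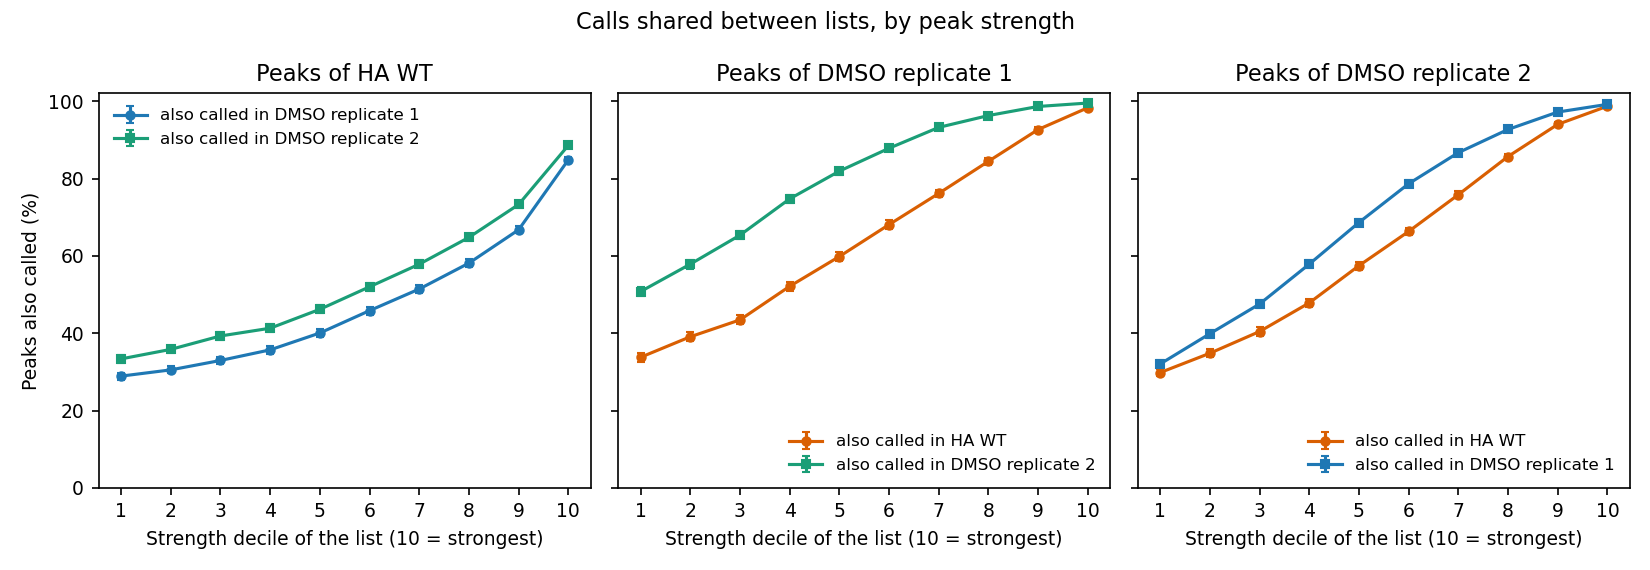
Percent of the peaks of each list that were also called in each of the other lists (vertical axis), by strength decile of the list (horizontal axis, 10 is strongest), with 95% exact intervals that are mostly smaller than the points. Shares of DMSO peaks called in HA WT reach 98.3% and 98.7% in the strongest decile, while shares of HA WT peaks called in DMSO end at 84.8% and 88.6%.

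Seen from the tagged side the picture was not symmetric. Of the weakest HA WT decile 23.2% of peaks were called in both DMSO libraries and 60.9% in neither. Of the strongest decile (tag counts from 38.2 upward) 83.6% were called in both (interval 82.9 to 84.4%) and 10.2% in neither (interval 9.62 to 10.8%). List by list, 15.2% of that HA WT decile had no call in DMSO replicate 1 and 11.4% none in DMSO replicate 2, while 1.68% of the strongest decile of DMSO replicate 1 (119 of 7081 peaks) and 1.29% of that of replicate 2 (105 of 8151) had no call in HA WT. Of the 987 peaks in neither DMSO library, 97.0% were called in the library of tagged K295A FOXA1 (HA K295A), made with the same antibody, hairpin and day, near the 99.5% of the whole decile. Of the 987, 28.8%, against 92.0% of the whole decile, were called in at least 1 of the 6 FOXA1 libraries of cells treated with 1 µM EPZ-6438, 3 µM P5091 or both, and 23 were called in none of these.

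**Figure D2:**
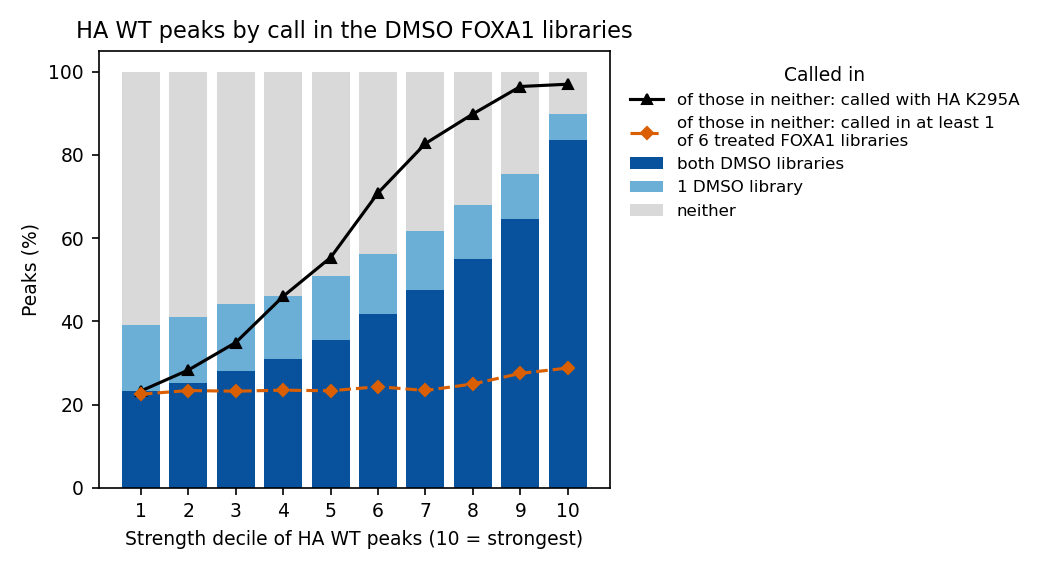
Stacked bars give the percent of HA WT peaks called in both, in 1 or in neither DMSO library, by strength decile of HA WT (10 is strongest). Among peaks in neither, the share also called with HA K295A (black line) goes from 23.3% in decile 1 to 97.0% in decile 10, and the share called in at least 1 treated FOXA1 library (orange line) stays between 22.5% and 28.8%.

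The other libraries of the series divide the classes. HA K295A was called at 54.1% of all 136493 regions and at least 1 of the 6 treated FOXA1 libraries at 69.6%. Against that, HA K295A was called at 53.2% of the regions of HA WT alone, a share near that over all regions, and the treated FOXA1 libraries at 23.8%. Regions of both DMSO libraries without HA WT went the other way, with HA K295A at 24.3% and the treated libraries at 95.6%. At regions called in all 3, the shares were 87.5% for HA K295A and 99.5% for the treated libraries. Of the 41328 regions of HA WT alone, 16251 (39.3%) were called with HA K295A and in no treated FOXA1 library, and 15236 (36.9%) in none of these other libraries. The shares of all merged regions with these patterns of calls were not analysed here, so the counts describe the class and do not set it apart.

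Where both were called, the peaks of tagged and endogenous FOXA1 were mostly centred close to each other. The median distance between peak centres was 33 bases for HA WT and DMSO replicate 1, 29 for HA WT and DMSO replicate 2, and 26 for the DMSO libraries. In the strongest DMSO decile these were 19, 17 and 14 bases, and in the weakest 51, 41 and 48 bases. The peak widths differ between lists (304 bases in HA WT, 365 and 289 in DMSO replicates 1 and 2).

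Some of the strong regions without an HA WT call had an HA WT peak close by. Of the 46 strongest-decile DMSO regions without an HA WT call, 24 (52.2%, interval 36.9 to 67.1%) had an HA WT peak centre within 1 kb, and 18 of them within 608 bases, the minimum distance between peaks that the HA WT file header records (the closest kept HA WT peaks were 502 bases apart). Over all 14870 regions of both DMSO libraries without HA WT, 7.84% had an HA WT peak centre within 1 kb, and in the weakest decile 4.14%. In reverse, 6.60% of the regions of HA WT alone had a DMSO peak centre within 1 kb. Counting a peak centre within 1 kb as a call left 22 of 5716 strongest-decile regions without HA WT, and moved the weakest decile to 42.4%. The rise with strength was thus present under both ways of counting.

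The order of the regions by strength was kept less well between tagged and endogenous FOXA1 than between the DMSO replicates. Over the 42285 regions called in all 3, Spearman's rho of the tag counts was 0.53 for HA WT and DMSO replicate 1, 0.61 for HA WT and DMSO replicate 2 and 0.82 for the DMSO libraries. These are descriptions across regions, which are not independent replicates and share library depth and local mappability. HA WT and HA K295A had a rho of 0.84 over the 37010 of these regions called in both. Each peak was also given its percentile within its own list. The median gap in percentile was 15.7 points for HA WT and DMSO replicate 1, 13.9 for HA WT and DMSO replicate 2 and 8.40 for the DMSO libraries. Gaps of over 50 points were found at 9.31% and 7.20% of regions for HA WT, and at 1.79% for the DMSO libraries.

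The same held at the very top of the lists. Of the 100 strongest HA WT peaks, 42 were among the 100 strongest of DMSO replicate 1 and 51 among those of replicate 2, whereas the DMSO lists shared 62 and HA WT and HA K295A shared 70. Of the 1000 strongest HA WT peaks, 47.2% and 55.8% were among the 1000 strongest of DMSO replicates 1 and 2. The DMSO lists shared 72.2% at that depth, and HA WT and HA K295A 75.1%. Called anywhere in DMSO replicates 1 and 2 were 89% and 94% of the 100 strongest HA WT peaks, 96.5% and 97.5% of the 1000 strongest, and 84.48% and 88.25% of the 10000 strongest. Between the DMSO lists these shares were 97 to 100% at all 3 depths.

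**Figure D3:**
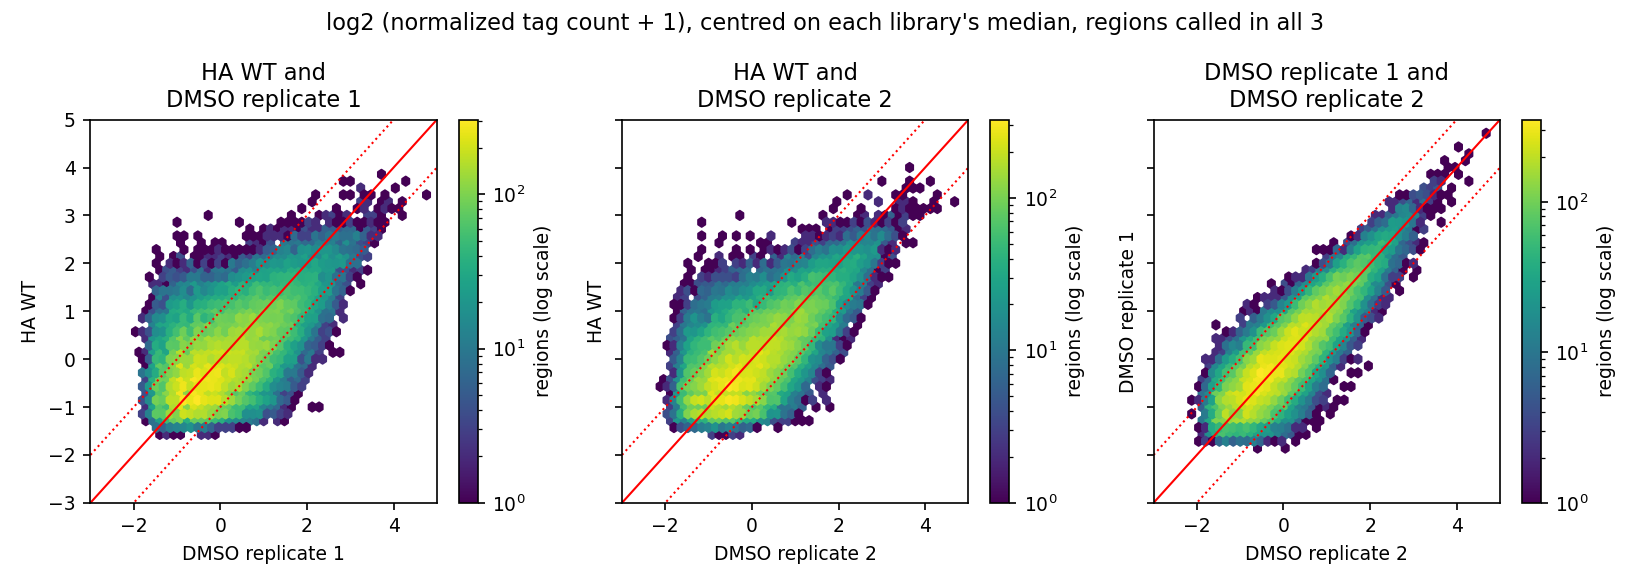
Density of the 42285 regions called in all 3 libraries, as log2 (normalized tag count + 1) centred on the median of each library, for HA WT (vertical) against DMSO replicates 1 and 2 (horizontal) and for the DMSO replicates against each other. The solid line marks equal values and the dotted lines a 2-fold difference, and 78.4%, 83.5% and 94.6% of regions lie within the dotted lines in the panels from left to right.

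To find regions where tagged FOXA1 stood apart in strength, values were put on the log2 (tag count + 1) scale and the median of each library, over regions called in all 3, was subtracted. Of 42285 regions, 2489 (5.89%) were at least 2-fold above both DMSO libraries in HA WT, and 1939 (4.59%) at least 2-fold below both. DMSO replicate 1 was at least 2-fold above replicate 2 at 1144 regions (2.71%) and below it at 1125 (2.66%). Against 1 DMSO library in place of both, 3914 regions were 2-fold higher and 3048 lower in HA WT without DMSO replicate 1, and 4593 and 4561 without DMSO replicate 2. The SD of the centred difference was 0.82 between HA WT and DMSO replicate 1, 0.74 between HA WT and DMSO replicate 2, and 0.51 between the DMSO replicates. HA WT lay between the DMSO replicates at 21.6% of regions, above both at 36.0% and below both at 42.4%.

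limma with Benjamini-Hochberg adjustment at 0.05 called 2046 regions higher (4.84%) and 1694 lower (4.01%) in HA WT than in DMSO. This test assumes that the lone HA WT library varies as the DMSO libraries do. The spread used for each region came from a trend pooled over the 42285 tested regions, not from replicates of that region. Small p-values of this fit thus do not measure a spread between tagged replicates. Of the 2046 higher regions, 1861 were also among those 2-fold above both DMSO libraries, and of the 1694 lower, 1364 were among those 2-fold below. Without centring the split was 840 higher and 3838 lower, since the median uncentred log2 difference was -0.38, and edgeR's quasi-likelihood test called 2247 higher and 809 lower. With the spread also taken from the EPZ-6438 and P5091 libraries, 436 regions were higher (1.32%) and 350 lower (1.06%) of 33055 called in all 7.

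The other libraries had values of their own at these regions. At the 2489 regions 2-fold above, the median tag count was 37.4 in HA WT, 31.6 in HA K295A, and 14.6 and 14.5 in DMSO replicates 1 and 2. HA K295A was called at 98.4% of them, against 87.5% of all regions called in all 3. The 6 treated FOXA1 libraries had medians of 11.3 to 19.5 at these 2489 regions. Each median covers only the regions with a call in that library. The treated libraries were called at 24.7% (combination replicate 1) to 89.9% (P5091 replicate 2) of the 2489. Over all regions called in all 3, those 2 libraries were called at 56.2% and 93.8%. At the 1939 regions 2-fold below, the median was 14.5 in HA WT, 19.6 in HA K295A, 57.8 in DMSO replicate 1 and 46.4 in DMSO replicate 2. HA K295A was called at 91.1% of these. Of the treated libraries, 5 had medians of 41.8 to 54.1 and the combination replicate 1, with 5.26% of its tags in peaks, had 18.8. Over all regions called in all 3, the medians were 20.6 in HA WT, 21.8 in HA K295A and 15 in combination replicate 1. Against its own such median, HA K295A was higher at the first set and lower at the second, as HA WT was. The DMSO libraries and all 6 treated FOXA1 libraries went the other way. Both sets were chosen by HA WT against the DMSO libraries, so the contrast between those libraries was set by that choice. HA K295A and the treated libraries had no part in it.

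The regions with the highest differences had a strong HA WT peak over a DMSO peak of low to middling strength, between the percentiles 4.55 and 63.4 of its own list. At chr10:72970230-72970869 (hg19, as all coordinates here) the tag count was 127.5 in HA WT, against 13.2 and 11 in DMSO replicates 1 and 2, a centred log2 difference of 3.62 ± 0.47 (SE). HA K295A had 128.1 there, and of the treated FOXA1 libraries only 2 had a call, the higher at 18.8. At chr16:1004930-1005351 the values were 103 in HA WT, against 9.51 and 11 in the DMSO libraries, a log2 difference of 3.53 ± 0.48 (SE), with 62.5 in HA K295A.

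In the next 3 HA WT was likewise higher than both. At chr3:46949368-46950037 the tag count was 127.5 in HA WT, against 15.4 and 15.1 in DMSO. At chr6:47677139-47677503 it was 119.1 in HA WT, against 13.9 and 14.5 in DMSO, with all 6 treated libraries called between 6.64 and 17.6. At chr10:5690207-5690864 it was 175.5 in HA WT, against 23.4 and 20.3 in DMSO. These 5 regions were chosen as 2-fold above both DMSO libraries and by the size of the difference. That HA WT lay above both was thus set by the choice, and limma's p-values there rest on the same values. With the spread also taken from the treated libraries, limma's adjusted p was 0.0087 at the chromosome 6 region, the only one of the 5 called in all 7 libraries. At 3 of the 5 the peaks of HA WT and DMSO replicate 1 barely met. The HA WT peak on chromosome 3 shared no base with the peak of DMSO replicate 1 and was joined to it through that of replicate 2, so the value compares different stretches. The HA WT peaks at chr10:72970230-72970869 and chr10:5690207-5690864 shared 30 and 12 bases with the peak of DMSO replicate 1. With the peak of DMSO replicate 2 they shared 176 and 278 bases, and the HA WT peak on chromosome 3 shared 120. Over all regions called in all 3, 240 (0.568%) were joined to a DMSO peak only through that of the other replicate. Among them were 23 of the 2489 that were 2-fold above and 7 of the 1939 that were 2-fold below.

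The regions with the lowest differences had a DMSO peak among the stronger ones over an HA WT peak near its limit. At chr21:31599371-31599735 the tag count was 9.92 in HA WT, against 131.6 and 89.4 in DMSO replicates 1 and 2, a centred log2 difference of -3.0 ± 0.40 (SE, limma's adjusted p = 6.25e-10). The treated FOXA1 libraries had 38.1 to 128.5 there, and HA K295A had no call. At chr12:94486719-94487083 it was 11.4 in HA WT, against 96.5 and 85.9 in DMSO, with 18.8 in HA K295A. At chr17:8435432-8435826 it was 11.4 in HA WT, against 91.4 and 87.7 in DMSO, with 16.6 in HA K295A.

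The HA WT values at these sites rest on few tags. At chr22:43078415-43078779 HA WT had 8.40 (11 tags, exact Poisson interval 4.19 to 15.03), against 67.3 and 63.3 in DMSO. At chr8:25116095-25116459 HA WT had 9.92 (13 tags), against 114.8 and 58.1 in DMSO replicates 1 and 2, which differed most from each other among these 5. All 5 were called in all 6 treated FOXA1 libraries, as were 86.4% of the 1939 regions 2-fold below and 52.1% of all regions called in all 3. HA WT lay below the lowest treated value at each of the 5. These 5 were chosen as 2-fold below both DMSO libraries and by the size of the difference. That HA WT lay below both was thus set by the choice, and limma's p-values there rest on the same values. With the spread also taken from the treated libraries, limma's adjusted p was 0.0087 to 0.020 over these 5.

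The regions strongest in all 3 lists were stronger in DMSO on the deposited scale. At chr15:69886986-69887350 the tag count was 279.3 in HA WT, against 573.3 and 435.4 in DMSO replicates 1 and 2, a centred log2 difference of -0.51 ± 0.21 (SE) with limma's adjusted p = 0.099. At chr2:242032793-242033157 it was 222.9 in HA WT, against 768.6 and 669.9 in DMSO, a difference of -1.36 ± 0.20 (SE, limma's adjusted p = 2.71e-08). At chr17:77809861-77810225 it was 209.9 in HA WT, against 540.4 and 503.3 in DMSO, a difference of -0.99 ± 0.21 (SE, limma's adjusted p = 0.00046). With the spread also taken from the treated libraries the limma adjusted p was 0.035 for the chromosome 2 region and 0.13 for the chromosome 17 region. The other 2, on chromosome 1 at 156441307 to 156441671 and at 145246165 to 145246529, had 245.0 and 232.8 in HA WT and 346.0 to 480.1 in DMSO, and did not pass limma's threshold. In the HA WT list all 5 had percentiles of at least 99.975.

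Among regions called in HA WT alone, the 5 strongest differed in their excess over the surroundings. The first 2, chr10:42385065-42385369 with a tag count of 983.8 and chr18:18519209-18519513 with 351.1, exceeded their local 10 kb window by only 4.01-fold and 4.16-fold, where the lists required 4-fold. They lay 4.95 kb and 0.762 kb from a peak of an untagged HA library, close to it but without a shared base. The chromosome 10 region had 1186.4 in HA K295A, the chromosome 18 region had no call there, and neither was called in any treated FOXA1 library. The part of untagged background in these 2 was not tested.

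The next, chr12:124138924-124139228, had a tag count of 164.9 in HA WT and 136.3 in HA K295A, was 24.3-fold over its local window, and had no call in any of the 6 treated libraries. chr14:19885802-19886106 had 156.5 in HA WT and 114.5 in HA K295A, 36.5-fold over its local window, with 1 treated library called at 14.5. No DMSO peak centre lay within 1 kb of either, the nearest being 10982 and 1127 bases away.

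The fifth, chr1:8319158-8319462, had 109.9 in HA WT and stood next to the strongest region of both DMSO libraries without HA WT, chr1:8319661-8320040, with 271.3 and 193.3 in DMSO replicates 1 and 2. Their edges were 198 bases apart. At the fifth region 1 treated FOXA1 library was called, at 159.4, and HA K295A had no call. HA K295A was called at the adjoining DMSO region, with 117.5. The other 4 strongest DMSO regions without HA WT had an HA WT peak alongside as well. At chr9:70837314-70837678, with 175.5 and 106.2 in DMSO, the neighbouring HA WT peak had 55.7 and was 179 bases away. At chr1:207489842-207490206, with 161.6 and 113.8 in DMSO, it had 25.9 and was 128 bases away. At chr16:69943662-69944026, with 120.7 and 126.0 in DMSO, it had 93.9 and was 80 bases away. At chr9:84301163-84301527, with 122.9 and 114.4 in DMSO, it had 77.8 and was 106 bases away. The distances between centres were 415 to 540.5 bases. All were under the 608 bases of the HA WT header, and 3 of the 5 under the 502 bases between the closest HA WT peaks. HA K295A was also called at the DMSO regions chr1:207489842-207490206, with 25.6, and chr16:69943662-69944026, with 82.1. It had no call at the 2 DMSO regions on chromosome 9.

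**Figure D4:**
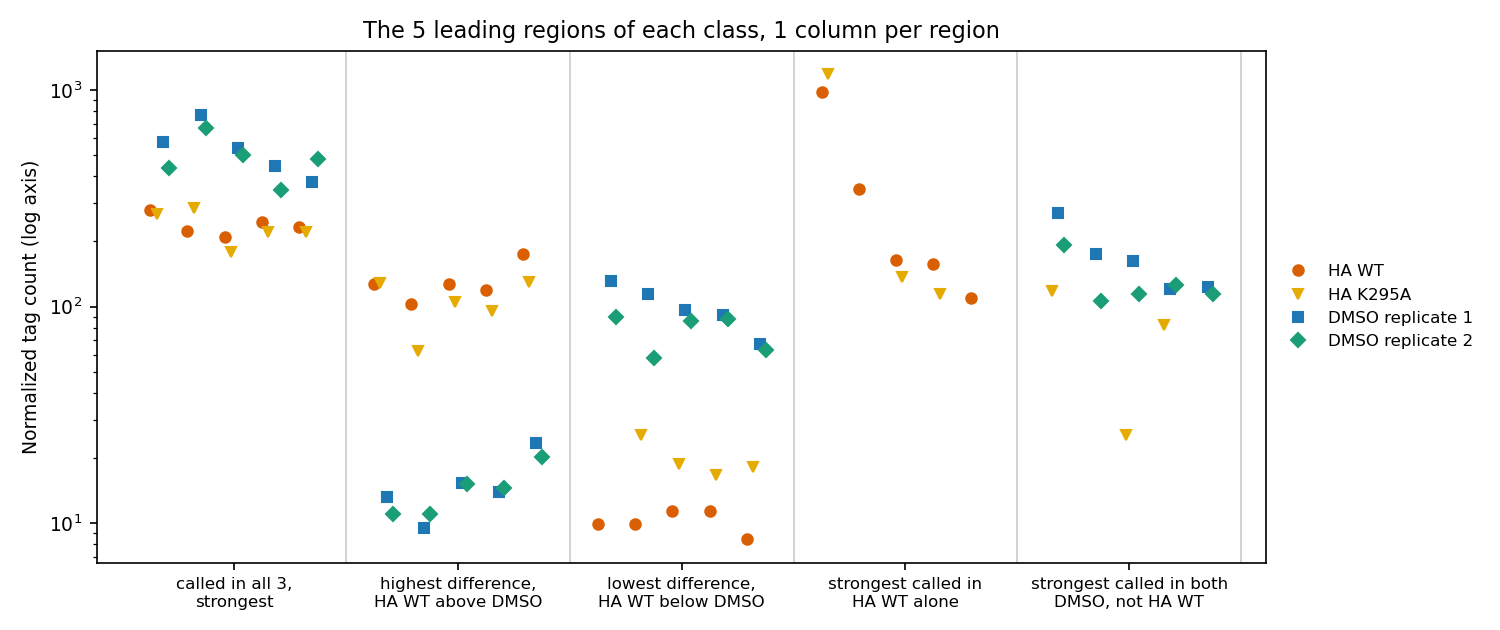
Normalized tag count (log axis) of the 5 leading regions of each class, 1 column per region, for HA WT, HA K295A and DMSO replicates 1 and 2; a missing point means no call. In the second class HA WT and HA K295A lie between 62.5 and 175.5 over DMSO values of 9.51 to 23.4, and in the third HA WT lies between 8.40 and 11.4 under DMSO values of 58.1 to 131.6.

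By chromosome, the share of DMSO regions called with tagged FOXA1 went from 67.1% on chromosome X (95% exact interval 64.6 to 69.6%) to 76.9% on chromosome 16 (74.7 to 79.1%). The interval held the overall 74.0% on 15 of 23 chromosomes, lay above it on 4 and below it on 4. Strength differs between chromosomes too. If each region were called at the rate of its strength decile, chromosome X would stand at 67.3%, next to its observed 67.1%. Its regions were the weakest, with a median mean tag count of 17.5, whereas the other chromosomes had 19.3 to 22.7.

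Chromosome 22 was the furthest from its decile mix. There 69.8% of regions were called in HA WT (interval 66.1 to 73.2%), while its deciles would give 73.9%, a difference of -4.18 points. On the other chromosomes that difference ran from -1.78 to 1.91 points. HA K295A was called at 65.1% of the same regions, its second lowest share after chromosome X at 62.7%. Chromosome 22 had 1.05 HA WT peaks for each peak of DMSO replicate 1, whereas chromosome 4 had 1.51.

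At shared regions, tag counts of HA WT were lowest relative to DMSO on chromosomes 22 and 19. The median centred log2 difference between HA WT and the DMSO mean was -0.26 on chromosome 22 and -0.21 on chromosome 19, both known as gene-rich, and -0.13 to -0.016 on the other 21. Against single replicates it was -0.31 and -0.17 on chromosome 22 and -0.28 and -0.22 on chromosome 19. The DMSO replicates differed by 0.14 on chromosome 22 and 0.072 on chromosome 19, so on chromosome 22 the replicate difference was near the smaller of the HA WT differences. On chromosome 19, 12 of 638 shared regions (1.88%) were 2-fold above both DMSO libraries, the lowest share of any chromosome, and 33 (5.17%) were 2-fold below. The share of HA WT regions that were called in HA WT alone was lowest on the same chromosomes, 34.1% on chromosome 22 and 35.5% on chromosome 19, and highest on chromosome 4 at 46.8%. Base composition and copy number of the chromosomes were not analysed here.

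**Figure D5:**
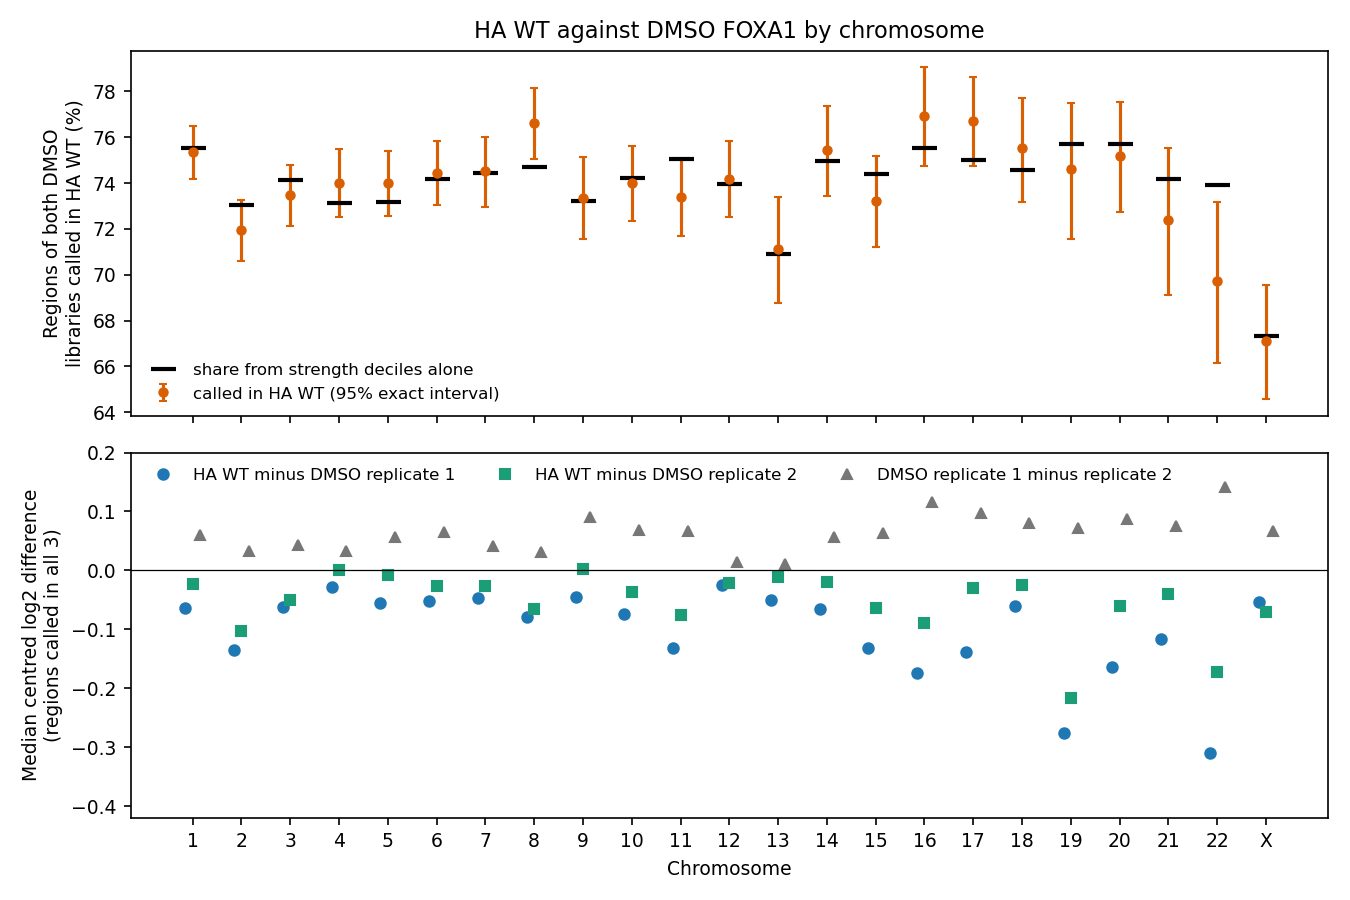
The upper panel gives, by chromosome, the percent of regions of both DMSO libraries that were called in HA WT with 95% exact intervals, and black marks for the share that their strength deciles alone would give (the axis does not start at 0). The lower panel gives the median centred log2 difference of tag counts for HA WT minus each DMSO replicate and for DMSO replicate 1 minus replicate 2; chromosomes 19 and 22 have the lowest HA WT values.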

How the data were processed

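Reads were processed with hg19 and with tools that include Bowtie2 and HOMER 4.2, per the submitters' processing notes. Each library had its own peak list from HOMER findPeaks (factor style, false discovery rate 0.001, at least 4-fold over the local 10 kb), per the file headers. The normalized tag count is the authors' deposited signal, scaled to 1e7 tags. The deposited findPeaks score served for a stricter threshold, and the deposited fold over the local window to describe regions. The deposited focus ratio, a fraction, was read and not reported. The deposited total tag count per peak was given for DMSO replicate 1, not for HA WT. Tags for edgeR were therefore recovered from the normalized value and the total of the library, and were whole for 100% of peaks within print rounding.

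A merged region took each library's highest peak. Log2 differences carry a pseudocount of 1, so the change of a low tag count is understated. limma 3.58.1 (trend) and edgeR 4.0.16 ran in R 4.3.3. On simulated data with known answers the overlap and merge steps gave the known values. The limma step was also run on simulated libraries, with outcomes not reported here. There HA WT was given the spread of the DMSO libraries, so the assumption that it varies as they do was not tested. A p-value here reflects only the spread of these samples, which may be technical. Members, classes and alternatives were chosen with earlier results of these data known. Named regions are the 5 leading ones of each class on chromosomes 1 to 22 and X, by mean percentile rank, centred difference or tag count. Genes and sequences near the regions were not analysed here.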

Additional observations from a re-analysis of the deposited data

How the results depend on the processing

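Of 94 recomputed summary values, 46 stayed within the spread or within 1.5 times of the reported one and 48 did not. The side with more calls changed: it was the higher one as reported, and the lower one without centring and in the upper part of the mean tag count. With peak centres at most 100 bases apart, 45.2% of HA WT peaks were called in DMSO and 57.4% of DMSO peaks in HA WT, the DMSO deciles ran from 37.2 to 98.4% and the HA WT deciles from 17.4 to 77.6%. With the shorter peak covered by at least 50%, 62.1% of DMSO peaks were called in HA WT. With the stricter score, it was 65.6%, with 23055 regions of HA WT alone and 8259 of both DMSO libraries alone. With the 70809 strongest peaks of each list, 55.2% of peaks were shared in both directions, 27342 regions were of HA WT alone, the lowest DMSO decile was at 29.1%, the HA WT deciles ran from 27.0 to 86.8%, and the shares were 51.8% on chromosome X and 60.0% on chromosome 22. Regions 2-fold beyond both DMSO libraries numbered 1235 higher and 4758 lower without centring, 1107 and 1180 in the upper part of the mean tag count, and 1214 lower with a pseudocount of 5. limma called 840 higher and 3838 lower without centring, 1190 higher in the upper part, and 436 higher and 350 lower with the spread of 7 libraries; the same 33055 regions with 3 libraries, an alternative chosen after seeing the data, gave 1477 and 1226. edgeR called 809 lower.

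Leaving out each DMSO library in turn leaves a single DMSO list in place of both, so these values use fewer calls. Regions of DMSO without HA WT then numbered 24927 to 30088, of HA WT alone 45166 to 50706, and rho was 0.53 to 0.58. HA WT peaks called in DMSO were 47.5 to 53.2%, and DMSO peaks called in HA WT 63.1 to 64.8%. The lowest DMSO decile was at 30.1 to 33.8%, the highest at 98.3 to 98.7%, the lowest HA WT decile at 28.9 to 33.3% and the highest at 84.8 to 88.6%. Under the 4 alternatives in which deciles and chromosomes were recomputed (centres within 100 bases, equal list lengths, and without each DMSO library), the share rose from the lowest to the highest decile and chromosome X stood below chromosome 22. Without each DMSO library in turn, chromosome X was at 54.9 to 57.4% and chromosome 22 at 58.4 to 59.8%. Regions 2-fold higher numbered 3914 to 4593 and 2-fold lower 3048 to 4561. limma cannot be run with 1 library a side. No paired analysis was possible because HA WT is 1 library and shares no 2 replicate numbers with DMSO. The thresholds of 10 or 11 tags leave counting error largest at the weakest regions, and lists at equal depth were not analysed here. The cause of each shift was not tested.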

Other observations

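HA WT can also be set against the treated FOXA1 libraries over the regions called in all 3 lists and in the treated library. Spearman's rho of HA WT was 0.62 with P5091 replicate 2, 0.56 with EPZ-6438 replicate 2, 0.55 with combination replicate 2, 0.54 with P5091 replicate 1, 0.54 with combination replicate 1 and 0.52 with EPZ-6438 replicate 1, across 23770 to 39664 regions. In each treatment the replicate 2 library had the higher value, as DMSO replicate 2 had over DMSO replicate 1. The modal widths of the replicate 2 lists (274 to 296 bases) were nearer to the 304 bases of HA WT than those of DMSO, EPZ-6438 and P5091 replicate 1 (356 to 364 bases). The combination pair did not follow this, with 278 bases in replicate 1, which had the lower rho, and 274 in replicate 2. The part of peak width in these values was not tested.

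The 531 HA WT peaks that shared a base with an untagged HA peak had a median tag count of 19.8, and 15.3 was the median of the 96589 kept. Of the 531, 8.10% were called in DMSO replicate 1 and 8.10% in DMSO replicate 2, against 47.5% and 53.2% of the kept peaks.

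Regions of HA WT alone lay a median of 22.4 kb from the nearest region called in all 3, and 8.89% of them lay over 100 kb away. For regions of both DMSO libraries without HA WT these were 18.0 kb and 6.04%, and between neighbouring regions called in all 3 they were 18.3 kb and 5.78%.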
